A study of Sus scrofa with 2 samples.

Results

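Lymphatic endothelial nuclei of the pig left ventricle were picked out by their own transcripts: 1364 of 31664 kept nuclei, 797 in the wild-type library (WT) and 567 in the transgenic library (TG). A kept nucleus had at least 500 genes and at most 5% of its UMIs (unique molecular identifiers, counted RNA molecules) from mitochondrial genes. A nucleus was a member when MMRN1, RELN, PROX1 and FLT4 together reached 5 UMIs and 0.2% of its UMIs, with at least 3 from MMRN1 and RELN. Nuclei were left out when RYR2 and CTNNA3, genes of cardiomyocytes, reached 1%. They were also left out when a macrophage pair (CD163, F13A1), a fibroblast trio (ABCA8, COL1A1, PDGFRA) or a mural pair (RGS5, EGFLAM) reached 0.15%. The members were therefore selected on measured values of those genes, and the levels of the genes in the rule are a description only.

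Single-nucleus RNA sequencing (10x Genomics 3' chemistry) was applied to frozen free wall of the left ventricle from Bama pigs, a miniature breed. WT is labelled wild-type. TG is labelled triple-transgenic and carries PNPLA3 I148M (a variant of a lipid droplet protein), a dominant-negative GIPR (the receptor of the gut hormone GIP) and human IAPP (the islet amyloid peptide). Both genotypes were fed a high-fat, high-sucrose diet for 12 months, so the diet is shared and has no control here. With 1 library per genotype there is no replicate. Genotype, animal and library preparation cannot be told apart, no test was made, and every 95% interval given covers counting error only. Age, sex, the number of pigs behind each library and the promoters of the transgenes are not given in the sources used here.

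Lymphatic endothelium lines the blind-ended capillaries and the valved collecting vessels that return fluid, lipid and immune cells from tissue to blood. In the heart these vessels drain the ventricular wall toward the epicardium. PROX1 is the transcription factor that sets lymphatic identity, FLT4 is the receptor for the growth factors VEGF-C and VEGF-D, RELN is the secreted glycoprotein reelin, and MMRN1 is the secreted protein multimerin. LYVE1, a hyaluronan receptor of lymphatic capillaries, was not part of the rule.

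The WT members had a median of 5075 UMIs (range 775 to 15382) and 2400 genes, and the TG members 2744 UMIs (1973 to 19440) and 1616 genes. All kept nuclei had medians of 5442 and 3937 UMIs, so the depth gap between the libraries was wider among the lymphatic nuclei. The median mitochondrial share was 0.768% in WT members and 0.947% in TG members. The libraries had 81 barcodes in common. Of these, 6 were WT members and 6 TG members, and 1 barcode was a member in both. The 14 cardiomyocyte markers in the matrices summed to 2970 UMIs per 1000000 nuclear-encoded UMIs (written CPM below) in WT members and 10595 CPM in TG members, against 32244 and 27258 CPM in all other kept nuclei. None of the 14 was at 0 in either library. The part of this muscle RNA in the gene results was not tested, and its values stand beside the groups it moved with.

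Lymphatic endothelial nuclei made up 4.77% of kept nuclei in WT (95% Clopper-Pearson interval 4.45 to 5.10%) and 3.80% in TG (3.49 to 4.11%). The ratio of TG to WT was 0.796 (0.714 to 0.888). The rule reads a share of UMIs, and the share depended on how strict it was. At a lymphatic share of at least 0.4% the nuclei took 2.30% of both libraries, a ratio of 1.00 (0.862 to 1.16). Among nuclei with at least 2000 UMIs the shares were 5.32% and 3.75%, a ratio of 0.705 (0.631 to 0.787). The deposited matrices held 18251 barcodes in WT, of which 1526 were not kept, and 15000 in TG, of which 61 were not kept. The shallowest member had 775 UMIs in WT and 1973 UMIs in TG. Whether shallow nuclei were already missing from the TG matrix, and the part of this in the shares given here, was not tested. Vascular endothelial nuclei, taken by FLT1, EMCN and PTPRB in place of the lymphatic genes and with under 0.05% of UMIs from the 4 lymphatic genes, numbered 1015 in WT and 1865 in TG. The lymphatic nuclei were 44.0% (41.7 to 46.3%) of these 2 classes in WT and 23.3% (21.65 to 25.05%) in TG. Both the fewer lymphatic and the more numerous vascular nuclei of TG enter that difference.

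The median member held 19 UMIs of the 4 rule genes in WT and 14 in TG, which were 0.393% and 0.473% of its UMIs. Just inside the rule, 185 WT and 92 TG members had a share of 0.2 to 0.3%. Just outside it, 124 WT and 68 TG nuclei had 0.1 to 0.2%, and 24 and 13 had fewer than 3 UMIs of MMRN1 and RELN. The limits on other classes took out 28 nuclei in WT and 23 in TG, of which 17 and 9 had too much RYR2 and CTNNA3.

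MMRN1 was at 1432 CPM in WT members and 2214 CPM in TG members, and between 2.74 and 13.1 CPM in vascular endothelial and all other kept nuclei of both libraries. RELN was at 1583 and 1941 CPM in members. PROX1 was at 734 and 480 CPM, and at 120 and 93.0 CPM in all other kept nuclei, where it is also known from cardiomyocytes. FLT4 was at 561 and 516 CPM. The rule used these levels, so nothing is read from their differences between the libraries. LYVE1, outside the rule, was at 1035 CPM (95% Poisson interval 1005 to 1066) in WT members and 947 CPM (902 to 993) in TG members. The vascular endothelial level of LYVE1 was 3.56 and 5.50 CPM. With every nucleus thinned to 1000 UMIs, 56.0% of WT and 55.4% of TG members had a LYVE1 UMI, against 0.4% and 0.6% of vascular endothelial nuclei (unthinned, 89.2% and 81.3% of members). The thinning left out 1 WT member and no TG member. LYVE1, the only 1 of the 5 label markers that the rule did not use, thus went with the label in both libraries.

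**Figure D1:**
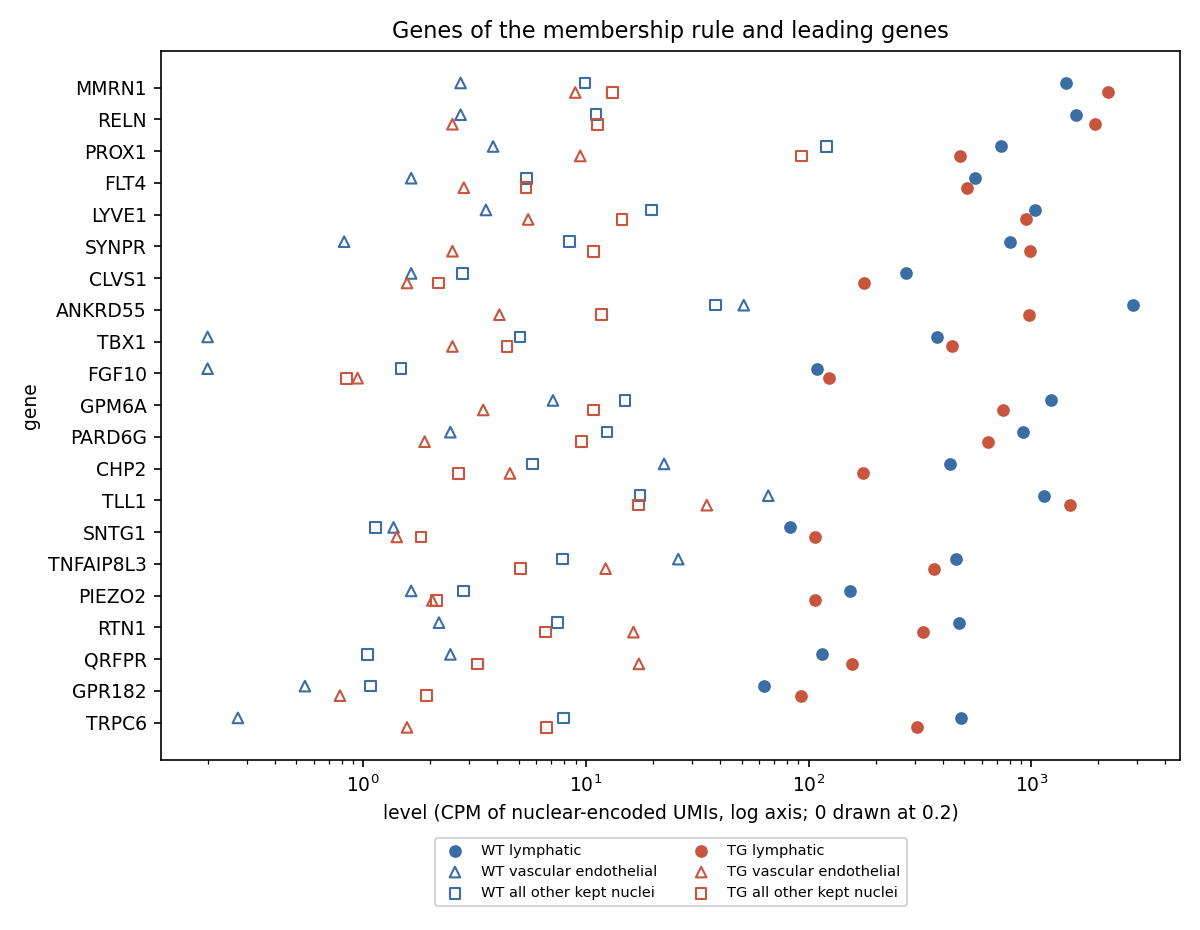
Level of the rule genes, LYVE1 and the other leading genes (CPM, log axis) in WT (blue) and TG (red), in lymphatic endothelial nuclei (filled circles), vascular endothelial nuclei (triangles) and all other kept nuclei (squares); a level of 0 is drawn at 0.2. Every filled circle lies to the right of the triangles and squares of its gene, for LYVE1 at 1035 and 947 CPM.

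Other genes that mark lymphatic vessels were present in the members of both libraries. PDPN, the membrane protein podoplanin, was at 536 and 505 CPM, and CCL21, the chemokine that guides dendritic cells into lymphatic vessels, at 795 and 1157 CPM. Vascular endothelial nuclei held little of either: PDPN stood at 4.92 and 10.8 CPM and CCL21 at 6.57 and 20.9 CPM. MRC1, a scavenger receptor of lymphatic endothelium and macrophages, was at 670 and 663 CPM, and SEMA3D, a secreted semaphorin, at 879 and 705 CPM. TFF3, a further lymphatic gene, had no UMI in any member, which allows up to 3 UMIs per library. Of genes shared by all endothelium, PECAM1 was at 1336 and 1260 CPM and CDH5, the cadherin of endothelial junctions, at 193 and 193 CPM. CDH5, TIE1 and LDB2 were above their vascular endothelial levels in both libraries. Furthest below those levels were ESAM (2.38 and 19.6 CPM, against 171 and 230 CPM) and PALMD (190 and 327 CPM, against 608 and 904 CPM). FLT1, the decoy receptor of blood vessels, was at 9.50 and 76.2 CPM in members, against 1299 and 1102 CPM in vascular endothelial nuclei. Those nuclei were selected on FLT1, EMCN and PTPRB, so this contrast is a description only. Other blood vascular markers varied. BTNL9 (0.475 and 24.1 CPM in members, against 96.6 and 185 CPM) and RGCC (5.94 and 66.2 CPM, against 504 and 729 CPM) were far below, as FLT1 was. EMCN was less apart, at 581 and 601 CPM in members, against 904 and 912 CPM. Only KDR of these markers was higher in members, at 488 and 511 CPM, against 219 and 312 CPM.

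The 20 genes with the highest ratio of members over all other kept nuclei were taken by the lower of the 2 libraries' ratios, and are a description of the chosen nuclei. Beside MMRN1, RELN, FLT4 and LYVE1 they included TBX1, a transcription factor, at 377 and 440 CPM, and FGF10, a growth factor, at 109 and 124 CPM. The metalloprotease TLL1 was at 1143 and 1493 CPM. Ion channels among them were PIEZO2, which opens on mechanical force (154 and 107 CPM), and TRPC6 (484 and 306 CPM). Receptors were QRFPR (115 and 157 CPM) and GPR182 (62.9 and 92.5 CPM). Several are otherwise known from neurons: SYNPR, a synaptic vesicle protein, was at 800 and 989 CPM, GPM6A, a membrane glycoprotein, at 1221 and 750 CPM, and RTN1, a reticulon, at 476 and 326 CPM. PARD6G, a cell polarity protein, was at 916 and 641 CPM. CLVS1, ANKRD55, CHP2, SNTG1 and TNFAIP8L3 completed the 20. SYNPR in vascular endothelial nuclei was at 0.821 and 2.52 CPM, and TBX1 at 0 and 2.52 CPM.

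Against vascular endothelial nuclei, the genes furthest below were MEOX1, VEGFC, LHX6, ADGRG6, NPAS3, FAM167B, ADGRL4, IYD, PLAT and NTF3. VEGFC encodes the ligand of FLT4. It was at 9.03 CPM in WT members and 15.7 CPM in TG members, but at 620 and 390 CPM in vascular endothelial nuclei. PLAT, the tissue plasminogen activator, was at 11.4 and 20.7 CPM in members and at 460 and 351 CPM in vascular endothelial nuclei. The adhesion receptor ADGRL4 was at 11.9 and 69.0 CPM in members, against 1265 and 1365 CPM. NRP2, the co-receptor of FLT4, was at 1209 and 841 CPM in members and at 186 and 191 CPM in vascular endothelial nuclei, whereas NRP1 was at 29.5 and 118 CPM in members and at 909 and 1209 CPM there.

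Between TG and WT, 12203 genes had at least 20 UMIs over both libraries in the lymphatic nuclei. A gene is called higher in TG where TG over WT reached 1.5 and its interval did not hold 1, and called lower by the same rule turned round. By these, 1768 genes were called higher (14.5% of those counted) and 1067 lower (8.74%), at a median log2 ratio of 0.02 over all. In vascular endothelial nuclei 11.5% of 13303 genes were called higher and 7.52% lower. Both classes come from the same 2 libraries. TMM scaling shifted log2 ratios by -0.11 and gave 1505 higher and 1498 lower genes. Of the 1768 higher genes, 981 were at a lower level in TG members than in all other TG nuclei. Of the 1067 lower genes, 133 were at a lower level in WT members than in all other WT nuclei. Without these, 787 were higher and 934 lower. Each gene was thus held against the other nuclei of the library where it was higher, so the filter differed between the directions. Genes were named from that narrower set, where they reached 30 CPM in 1 library.

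The highest genes were of 2 kinds, some spread over many nuclei and some not. VAT1L, which encodes a protein related to a synaptic vesicle protein and lies on chromosome 6 from 9957498 to 10120543 (RefSeq, Sscrofa11.1), had 1 UMI in the 797 WT members and 626 UMIs in TG, spread over 311 of 567 members. Its level was 0.238 CPM (0.006 to 1.32) in WT and 351 CPM (324 to 380) in TG, a ratio of 1478 (264 to 58450). The libraries did not approach each other: with all nuclei thinned to 1000 UMIs, 29.1% of TG members and none of 796 WT members had a VAT1L UMI. The vascular endothelial level of VAT1L was 0.274 and 0.943 CPM, and that of all other kept nuclei 0.234 and 3.39 CPM. TG members of all 8 sub-clusters described below held it, at 161 to 469 CPM.

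The genes next to VAT1L did not share its difference evenly. NUDT7, the next gene toward higher coordinates, had levels of 13.5 and 25.2 CPM in WT and TG members (ratio 1.86, 1.23 to 2.80). ADAMTS18, a secreted metalloprotease on the same chromosome from 10488504 to 10652508, was at 5.46 and 53.3 CPM (ratio 9.75, 6.13 to 16.1). Its TG UMIs lay in 57 members, and it was itself among the highest genes. WWOX, on the other side, was at 790 and 621 CPM, and MON1B, beyond ADAMTS18, at 19.7 and 19.6 CPM; neither was called.

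FSTL4, a follistatin-like secreted protein on chromosome 2 from 135486885 to 136096939, also had 1 UMI in WT members. It had 192 UMIs in 106 TG members, 0.238 against 108 CPM (ratio 453, 80.4 to 17991). Thinned to 1000 UMIs, its log2 ratio was 6.72 in place of 8.24. The vascular endothelial nuclei went the other way, with FSTL4 at 3.83 and 1.26 CPM in WT and TG. TEX35, a gene named for its expression in testis, had 7 UMIs in WT and 63 in TG, the latter in 50 members (1.66 and 35.3 CPM). SPAG11 had 7 and 90 UMIs (1.66 and 50.5 CPM). It was also at 0 and 34.4 CPM in vascular endothelial nuclei and at 1.01 and 31.9 CPM in all others, so its difference ran through the library. HSPB7, a small heat shock protein of muscle, was at 42.5 and 249 CPM in members. Its level was 165 and 217 CPM in all other kept nuclei, and it moved with the cardiomyocyte markers, whose part was not tested.

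Another 5 of the highest genes rested on few nuclei. FBN2, a fibrillin, had 99 UMIs in 4 TG members, 52 of them in 1. GRIA4, a glutamate receptor subunit, had 50 of 99 UMIs in 1 of 12 members, and CNTN5, a contactin, 39 of 88 in 1 of 15. PDZRN4 had 57 of 70 UMIs in 1 of 11 members. DGKB, a diacylglycerol kinase, had 94 UMIs in 12 members, and its log2 ratio of 3.85 was 1.65 in thinned members. PDZRN4 (log2 ratio 3.25) was at 0.91 without members above 3 times the median UMI count and was then not called. For each of these 5 genes, at most 15 of the 567 TG members held a UMI.

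**Figure D2:**
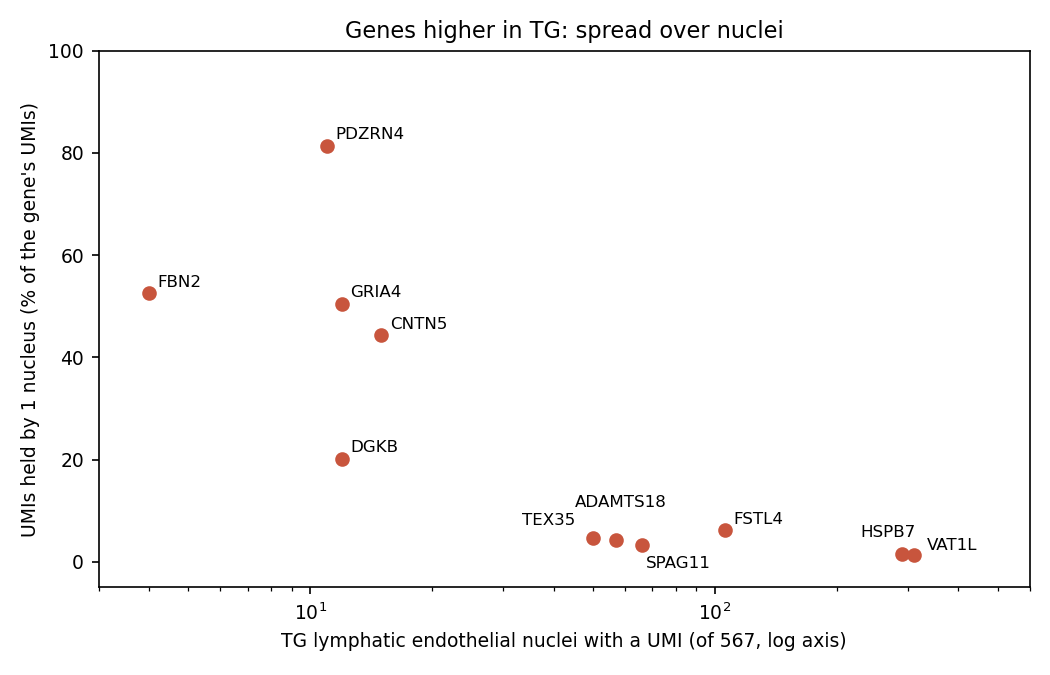
For 11 genes furthest above WT in TG lymphatic endothelial nuclei, the number of TG members with a UMI (x axis, log) and the share of the gene's UMIs held by 1 nucleus (y axis, percent). VAT1L lies at 311 nuclei, whereas PDZRN4, with 57 of 70 UMIs in 1 nucleus, and FBN2, in 4 nuclei, lie at the left.

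The genes furthest below were spread over many nuclei. PLD5, of the phospholipase D family, was at 367 CPM (349 to 385) in WT members and 82.4 CPM (69.6 to 96.9) in TG members, 4.45 times lower (3.76 to 5.31). It had a UMI in 462 WT and 98 TG members, and at 1000 UMIs per nucleus in 23.6% and 10.1%. It was low elsewhere, at 1.64 and 1.26 CPM in vascular endothelial nuclei. NUPR1, a stress-induced nuclear protein, was at 178 and 42.6 CPM, 4.17 times lower (3.29 to 5.35), and in vascular endothelial nuclei at 9.03 and 11.8 CPM. ANKRD55, an ankyrin repeat protein and a leading gene of the lymphatic nuclei, was at 2878 CPM (2827 to 2930) and 981 CPM (936 to 1028), 2.93 times lower (2.79 to 3.09). At 1000 UMIs it had a UMI in 75.9% of WT and 46.6% of TG members. ANKRD55 was lower in TG vascular endothelial nuclei too, at 51.2 and 4.09 CPM.

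SESN3, a sestrin regulated by FOXO factors, was at 527 and 209 CPM. NFATC2, a calcium-dependent transcription factor, was at 171 and 59.4 CPM, and TNS3, a tensin of focal adhesions, at 145 and 49.3 CPM. SLC25A6, an exchanger of ADP and ATP in mitochondria, was at 233 and 82.4 CPM, and at 145 and 74.7 CPM in vascular endothelial nuclei. USP43, SH3TC1, KLHL29 and RAB3IL1 were the others, at ratios of WT to TG between 2.82 and 3.89. USP43 was at 44.9 and 0.472 CPM in vascular endothelial nuclei. All 11 lower genes named stayed lower under every alternative run for them. With a library-wide RNA profile subtracted, as described for the lists below, the log2 ratio of ANKRD55 was -0.85 in place of -1.55 and that of PLD5 -1.46 in place of -2.15.

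**Figure D3:**
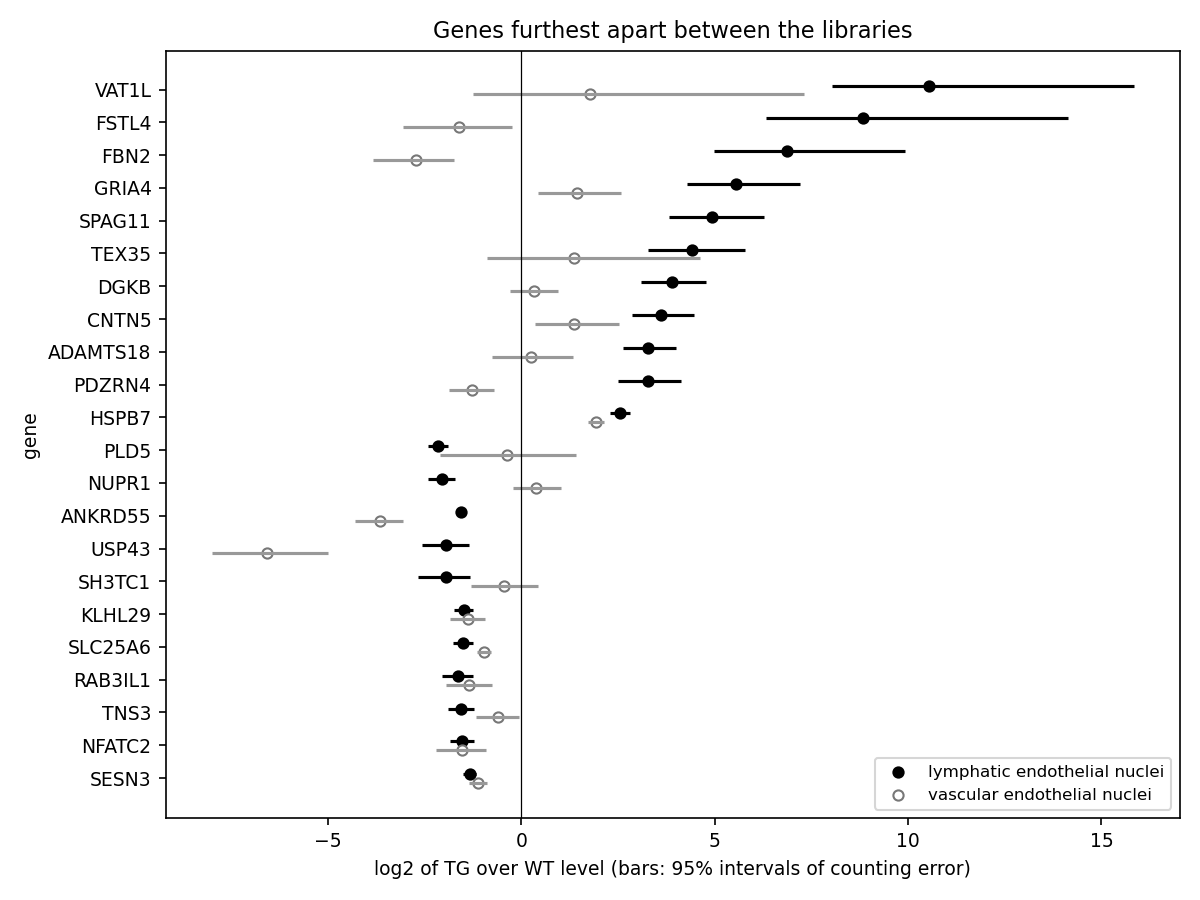
Log2 ratio of TG to WT for 11 of the highest and 11 of the lowest genes, in lymphatic (black) and vascular endothelial nuclei (grey, open), with 95% intervals of counting error. VAT1L and PLD5 are apart from 0 in lymphatic nuclei with vascular intervals that hold 0; FSTL4, FBN2 and PDZRN4 lie on opposite sides in the 2 classes; SPAG11 has no vascular point because its WT level there is 0.

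Gene lists were set beside the 14.5% of genes called higher and the 8.74% called lower overall. Of 20 counted lymphatic identity genes outside the rule, 0 were called higher and 9 lower, 11 were neither, and the median log2 ratio was -0.52. ITGA9, the integrin subunit of lymphatic valves, was at 2572 and 1422 CPM, and ABI3BP, a matrix protein, at 1243 and 767 CPM. MAF, a transcription factor, was at 397 and 259 CPM, TFPI, an inhibitor of coagulation, at 197 and 111 CPM, SOX18, which acts upstream of PROX1, at 257 and 170 CPM, and the scavenger receptor STAB1 at 155 and 93.1 CPM. LYVE1, PDPN, SEMA3D, NRP2 and CCL21 were among the 11 that were not called. Without the members that carried markers of another class, 1 was called higher and 6 lower, at a median of -0.45. With a library-wide RNA profile subtracted at the level of the cardiomyocyte markers (23.1% of the member profile in WT and 63.6% in TG), the median was 0.10, the opposite sign. With the profile scaled to RYR2 and CTNNA3 alone, an alternative chosen after seeing the data, it was -0.47.

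Genes of valves and collecting vessels were mixed, with 3 called higher, 4 lower and 13 neither of 20. CLDN11, a claudin known from lymphatic valves, had 32 UMIs in WT and 2 in TG members (7.60 and 1.12 CPM, ratio 0.148, 0.02 to 0.578). EFNB2 (185 and 114 CPM) and SEMA3A (167 and 108 CPM) were also lower. LAMA5 (7.84 and 43.7 CPM), ENG (23.8 and 69.0 CPM) and FN1 (32.1 and 53.3 CPM) were higher. ENG and FN1 in TG members were below all other TG nuclei (111 and 81.2 CPM), and LAMA5 was above them (38.0 CPM). In vascular endothelial nuclei ENG was at 389 and 587 CPM, and FN1 was called lower, at 103 and 34.0 CPM. FOXC2, a transcription factor of valves, had 0 and 1 UMI, which is at the limit of this depth.

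Among 22 genes of VEGF-C, VEGF-D and angiopoietin signalling, 6 were called higher, 1 lower and 15 neither, at a median of -0.10. The receptors at work in lymphatic endothelium were not called: KDR was at 488 and 511 CPM, TEK, the angiopoietin receptor, at 506 and 339 CPM, and TIE1 at 200 and 181 CPM. The 6 higher genes were FLT1, NRP1, VEGFC, VEGFD, CCBE1 (18.5 and 44.8 CPM), which helps to process VEGF-C, and SVEP1 (1.66 and 35.9 CPM), a matrix protein. All 6 were below the level of all other TG nuclei. Of 18 Notch and BMP genes, 6 were called higher and 1 lower; SMAD6 (4.99 and 46.5 CPM), an inhibitor of BMP signalling, had 484 CPM in TG vascular endothelial nuclei, and BMP6, a ligand, was at 146 and 287 CPM. Of 19 junction genes, 4 were higher, 1 lower and 14 neither. CLDN5, the main claudin of endothelium, was at 181 and 219 CPM, and ESAM (2.38 and 19.6 CPM) and JAM2 (2.14 and 20.2 CPM) were higher. ESAM was at 171 and 230 CPM in vascular endothelial nuclei.

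Of 18 leukocyte trafficking genes, 6 were called higher, 2 lower and 10 neither. The genes by which lymphatic endothelium directs leukocytes were mostly not called: CCL21 had a ratio of 1.46 (1.38 to 1.54), ACKR2, a chemokine scavenger, was at 227 and 165 CPM, and S1PR1, a sphingosine phosphate receptor, at 339 and 326 CPM. SPNS2, the exporter that supplies sphingosine phosphate to lymph, was lower, at 99.3 and 60.5 CPM. CXCL12 (4.99 and 58.9 CPM) and ICAM1 (84 and 77 UMIs, ratio 2.16, 1.57 to 2.98) were higher, and the levels of both in TG vascular endothelial nuclei (299 and 139 CPM) were above those in TG members.

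Of lipid handling and fatty acid oxidation genes, 14 of 23 were called higher, 1 lower and 8 neither, at a median of 1.10. CD36, a fatty acid transporter, was at 68.4 and 679 CPM in members, and FABP4, a fatty acid binding protein of capillaries, at 3.56 and 97.5 CPM. The vascular endothelial level of CD36 was 1962 and 2950 CPM and that of FABP4 450 and 758 CPM, and in all other kept nuclei CD36 was at 1352 and 1787 CPM. CPT1A, which controls the entry of fatty acids into mitochondria and is used by lymphatic endothelium, was at 22.6 and 85.2 CPM, above the 45.5 CPM of all other TG nuclei but below the vascular endothelial nuclei (76.9 and 147 CPM), where it was called higher too. ACADM was at 84.1 and 271 CPM. ABCG1, a cholesterol exporter, was lower, at 41.1 and 26.3 CPM. Without members that carried markers of another class 12 of 23 were higher, and with the library-wide profile subtracted the median was 0.45 over 16 genes.

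Nuclear-encoded subunits of the respiratory chain were called higher in 23 of 26 cases and lower in none, at a median of 1.01. COX5B was at 77.7 and 233 CPM and UQCR10 at 43.5 and 127 CPM. Among vascular endothelial nuclei 17 of 26 were higher, at a median of 0.82. The sum of cardiomyocyte markers moved the same way in members, and its part in the lipid and respiratory results was not tested. With the library-wide profile subtracted the respiratory median was 1.14.

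In the insulin, IGF and FOXO list, 4 of 17 genes were higher, 4 lower and 9 neither. TXNIP, an inhibitor of glucose uptake that responds to glucose, was at 835 CPM in WT members and 1927 CPM in TG members (ratio interval 2.20 to 2.42), and PDK4, which blocks pyruvate entry into mitochondria, at 129 and 269 CPM. TXNIP was at 688 and 1589 CPM in vascular endothelial nuclei too. PDK4 was at 56.9 and 186 CPM there, and at 58.1 and 314 CPM in all other kept nuclei. FOXO1 (358 and 208 CPM), IRS1 (46.1 and 22.4 CPM), IGF1R (895 and 542 CPM) and IGFBP4 (117 and 66.2 CPM) were lower, and INSR, the insulin receptor, was not called (149 and 183 CPM). TXNIP and PDK4 are also members of the glucocorticoid and fasting list, of which 5 of 17 were higher and 1 lower. In that list FKBP5, a glucocorticoid target, was at 147 and 234 CPM, and ANGPTL4, an inhibitor of lipoprotein lipase, at 155 and 239 CPM. Vascular endothelial nuclei had FKBP5 at 217 and 461 CPM, where it was called higher too, and ANGPTL4 at 21.1 and 29.1 CPM, not called.

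Interferon and antigen presentation genes were called higher in 7 of 21 cases and lower in 1, at a median of 0.41. MX2 had 1 UMI in WT and 63 in TG members (0.238 and 35.3 CPM) and was at 47.1 and 222 CPM in vascular endothelial nuclei. IFIT1 (40.9 and 50.5 CPM) and CD74, the chaperone of class II antigen presentation (1022 and 734 CPM), were not called. NF-kB and inflammation genes were higher in 8 of 16 cases and lower in none, at a median of 0.51, which was -0.07 with members thinned to 1000 UMIs. NFKB1 was not called at 231 and 193 CPM, and SOD2 was higher at 66.5 and 117 CPM. Of 18 immediate early and heat shock genes, 5 were lower and 2 higher: FOS was at 20.2 and 6.17 CPM and EGR1 at 15.9 and 5.61 CPM. Of 22 basement membrane genes 9 were higher and 0 lower. Among the 9, LAMA3, LAMA5 and LAMB2 were above the level of all other TG nuclei and the rest below it. LAMA3 had 10 of its 21 TG UMIs in 1 nucleus. MMRN2 was at 2.85 and 38.7 CPM, against 372 and 336 CPM in vascular endothelial nuclei. LAMA4, a laminin chain, was not called at 1300 and 1066 CPM. Of 23 axon guidance genes 5 were higher and 4 lower: EPHA4, an ephrin receptor, was at 425 and 214 CPM, and EFNA5, an ephrin, at 809 and 491 CPM. Only 4 of the 17 cell cycle genes in the matrices could be counted. CDK1 (50.1 and 96.4 CPM) and PCNA (36.8 and 56.1 CPM) were called higher, as in vascular endothelial nuclei, and KIF23 and NUSAP1 were not called. TOP2A had 2 and 11 UMIs, with 8 of the 11 in 1 TG member.

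**Figure D4:**
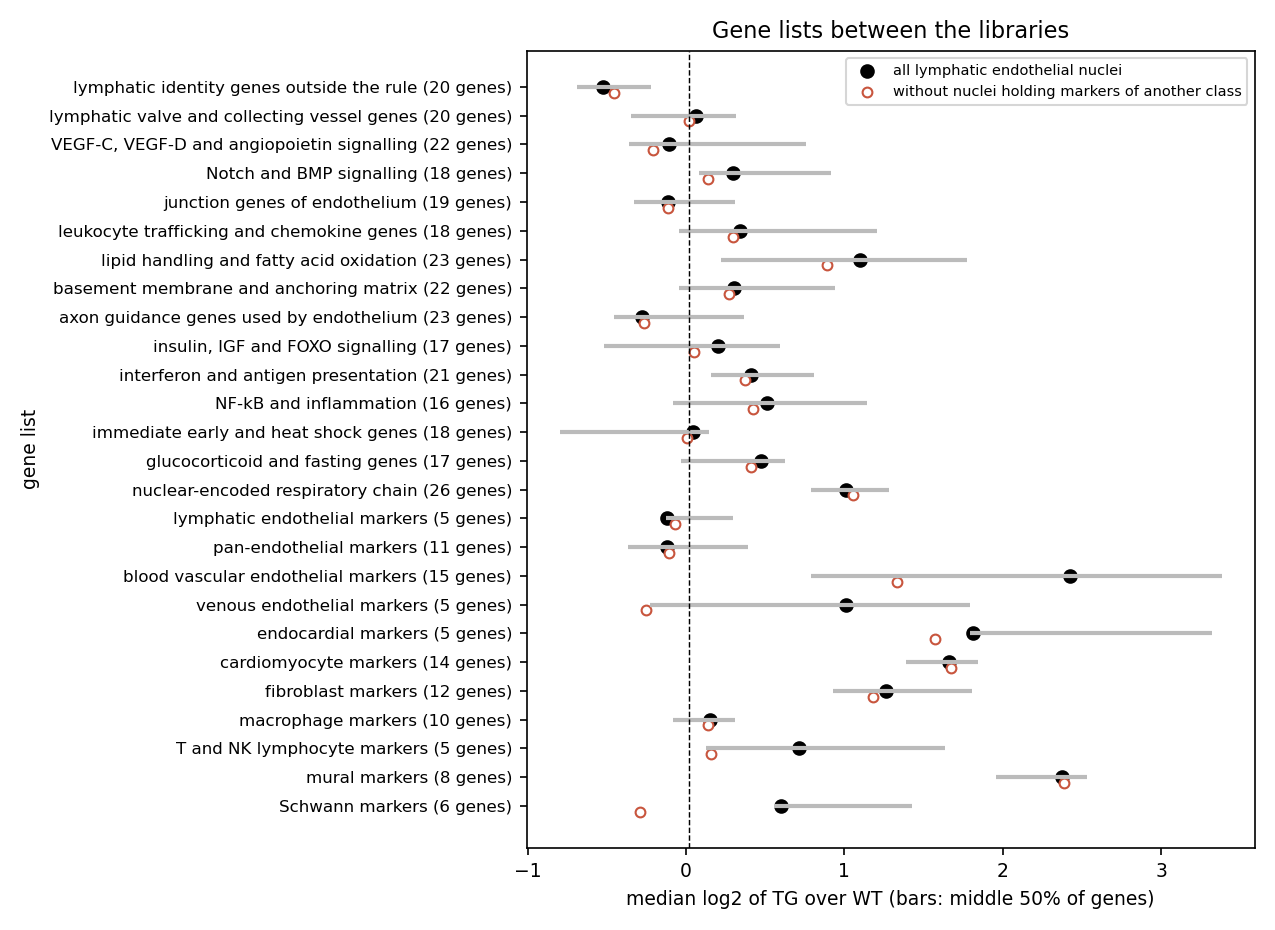
Median log2 ratio of TG to WT per gene list in lymphatic endothelial nuclei (black), with the middle 50% of its genes (grey bars), and the median without nuclei that held markers of another class (open red); the dashed line is the median of all genes counted. The lymphatic identity list lies lowest at -0.52, and the lipid (1.10), respiratory chain (1.01), blood vascular, cardiomyocyte, fibroblast and mural lists lie to the right; the Schwann and venous lists cross 0 without those nuclei.

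Markers of several other classes were higher in TG members, though not those of all. All 14 cardiomyocyte markers were called higher, and MYH7, the myosin of slow muscle, was at 826 and 3745 CPM. Fibroblast markers were higher in 10 of 12 cases, with sums of 572 and 1497 CPM, mural markers in 8 of 8 (49.4 and 201 CPM), and blood vascular endothelial markers in 11 of 15 (1901 and 3055 CPM). Macrophage markers were higher in 1 and lower in 1 of 10 cases (1130 and 1030 CPM). That sum held MRC1 at 670 and 663 CPM, and the lower gene was STAB1, both also named above for lymphatic endothelium. T and NK lymphocyte markers summed to 105 and 186 CPM and Schwann markers to 68.6 and 244 CPM. Venous markers were called higher in 3 of 5 cases, but their sum was 763 CPM in WT and 657 CPM in TG members. Most of that sum came from NR2F2 (450 and 360 CPM) and VWF (297 and 253 CPM), which were not called. Endocardial markers were called higher in 4 of 5 cases and lower in 1, the growth factor NRG1 (632 and 420 CPM), and their sum was 643 and 489 CPM. Platelet markers, which include MMRN1 of the rule, were higher in 2 of 3 cases. THEMIS had no UMI in WT and CD3G none in TG. In single members, blood vascular, fibroblast, macrophage, lymphocyte, mural or Schwann markers reached the sizes used for the lymphatic rule (5 UMIs and 0.2%) in 24 WT members (3.01%) and 72 TG members (12.7%). Cardiomyocyte markers were not part of this sum, and neither were 13 markers of those lists, such as VWF, KDR, CD36 and MRC1. Each of the 13 had a UMI in more than 10% of the members of both libraries. FABP4, RGCC, MEOX2, LUM and COL1A2 passed 10% in TG members only and stayed in the sum. Their part in the gap between 3.01% and 12.7% was not tested. Blood vascular markers reached these sizes in 1 WT and 29 TG members, and fibroblast markers in 9 and 22. The 24 WT and 72 TG members had a median of 6626 UMIs in WT and 3860 in TG, against 5035 and 2668 in the others. Without them the share ratio of TG to WT was 0.717 (0.639 to 0.804), 1442 genes were higher and 997 lower, and the Schwann markers summed to 31.4 and 33.2 CPM. The cardiomyocyte markers then summed to 3017 and 11006 CPM, no venous marker was called of 3 counted, and endocardial markers were higher in 1 of 2. This definition was chosen after the data had been seen; 2 earlier ones, which removed whole sub-clusters, the large WT2 and TG1 described below among them, gave share ratios of 0.902 and 0.519.

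Within each library the members were clustered on their own, which gave 8 sub-clusters per library (5 and 6 at a lower resolution of 0.3, 12 and 11 at 1.0). They are called by number and leading genes, and the levels of those genes describe the clustering. In WT, the 236 nuclei of WT1 were led by MAMDC2 (363 CPM, against 104 CPM in other members), and the 146 of WT2 by GRIA1 and IGFBP5. In WT2 the Schwann markers summed to 204 CPM, against 32.3 CPM in other WT members, with CDH19 and XKR4 among 4 at 5 times the level or more. These rested on few nuclei: over all WT members CDH19 had UMIs in 3 nuclei and XKR4 in 4, with 32 of its 64 UMIs in 1. WT3, with 125 nuclei, carried muscle RNA, with MYH7 at 3110 CPM against 420 CPM, and a median mitochondrial share of 1.23%. WT4 had 125 nuclei with DACH1 and ADAMTS9, and WT5 had 109 with LNX1, CHST9 and SCN3A. MYH7 was between 278 and 819 CPM in the other 7 WT sub-clusters and between 2433 and 4882 CPM in all 8 of TG.

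WT6 was small, with 28 nuclei, and stood apart from the rest. It was led by COL4A5 (429 CPM, against 9.85 CPM in other WT members), COL4A6, the neuronal nitric oxide synthase NOS1, SLIT3 (1114 and 55.2 CPM) and CLDN11 (107 and 3.94 CPM). LYVE1 was at 154 CPM and CCL21 at 208 CPM in WT6, the lowest among the WT sub-clusters. CLDN11 had a UMI in 28.6% of its nuclei. CLDN11 was at 4.15 CPM in TG2 and at 0 in the other 7 TG sub-clusters, and SLIT3 was also among the leading genes of TG1 (130 against 45.2 CPM). No separate TG sub-cluster was led by CLDN11 and COL4A5 at this resolution. TG had fewer and shallower members, and whether these nuclei were absent there was not tested.

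In TG, TG1 had 178 nuclei (TGM2, SLIT3), in which 4 Schwann markers, CDH19 and XKR4 among them, were also at 5 times the level of other members or more. Over all TG members CDH19 and XKR4 had UMIs in 5 nuclei each, with 24 of 40 XKR4 UMIs in 1. TG2 had 171 nuclei (SNTG1, SCN3A, FGF10, ANGPT2, IL7) and TG3 101 (IGFBP5, KLHL32, FSTL4). TG2 had the highest MMRN1 and RELN, at 3131 and 2814 CPM. SCN3A, a sodium channel, SNTG1 and IL7, a cytokine for lymphocytes, led both WT5 and TG2. IGFBP5 led both WT2 (356 against 91.9 CPM) and TG3 (720 against 78.2 CPM). The remaining TG sub-clusters apart from TG6 were led by genes of other classes: TG4 (52 nuclei) by ADGRL4 and FLT1, TG5 (29) by the fibroblast genes ABCA8 and ABCA6, TG7 (10) by ACTA2 of smooth muscle and TG8 (9) by the T cell genes CD6 and BCL11B. TG6 (17) held RYR2 at 1763 CPM, but its cardiomyocyte markers summed to 10809 CPM, against 10583 CPM in other TG members. Only 1 of its nuclei was among the 72 TG members with markers of another class. In WT, WT7 (15) and WT8 (13) were led by macrophage and fibroblast genes. WT7 also held T and NK lymphocyte markers, at a sum of 1087 CPM against 77.9 CPM in other WT members. Of these small sub-clusters, TG4, TG5, TG7 and TG8 held 62 of the 72 TG members with markers of another class.

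**Figure D5:**
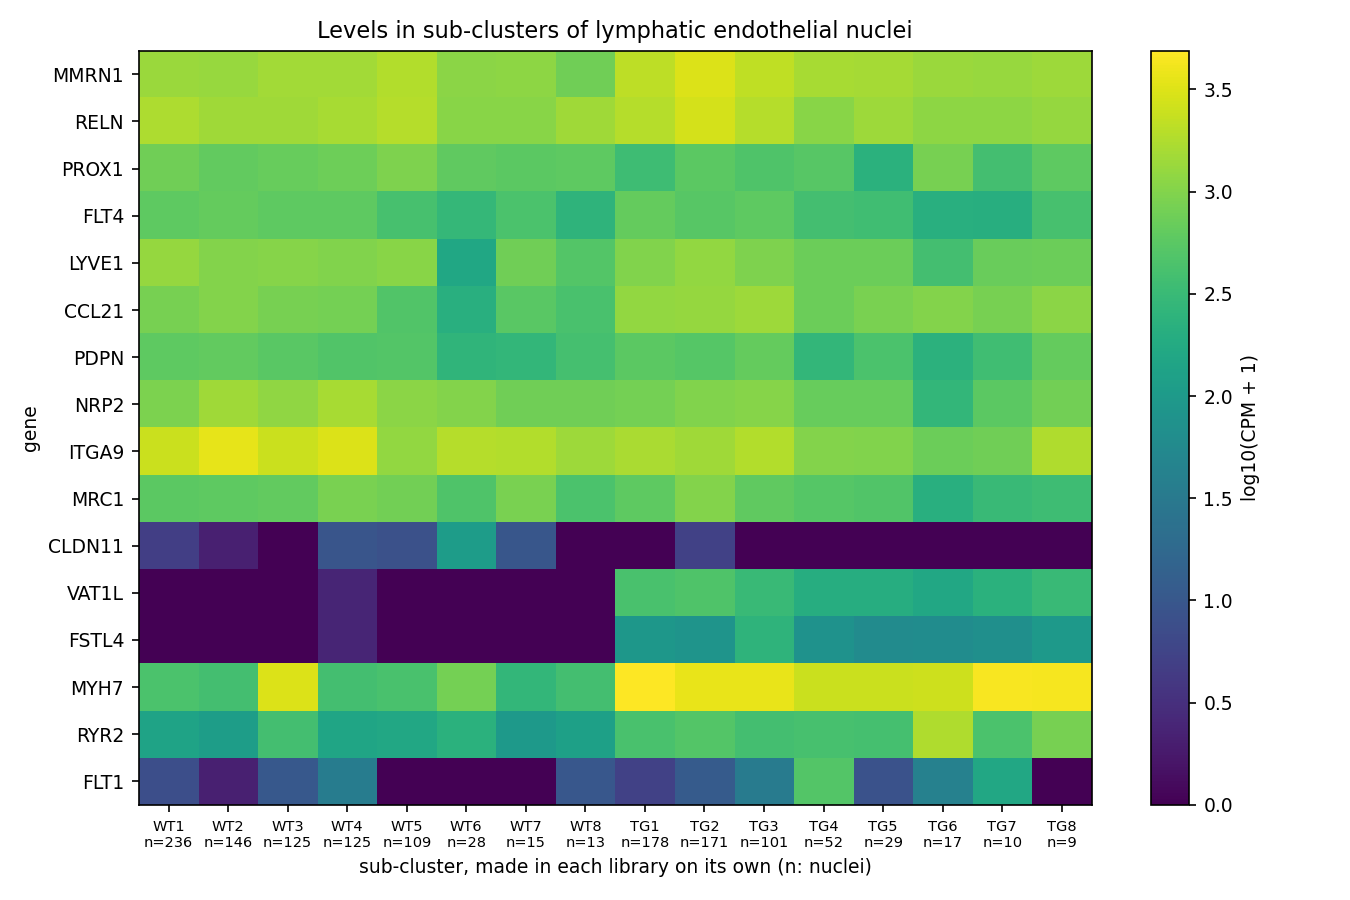
Level of 16 genes, as log10(CPM + 1), in the 8 sub-clusters of each library, with the number of nuclei under each name. MMRN1 and RELN are high throughout, VAT1L is present in all TG sub-clusters and near 0 in WT, CLDN11 is highest in WT6, and MYH7 is high in WT3 and in all of TG.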

How the data were processed

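The authors deposited 1 matrix of UMI counts per library, with 31908 genes; 10x Genomics 3' nuclei were sequenced, per the labels' protocols. The submitters' processing notes name the build Sscrofa11.1, Seurat 3.1.1 and Cell Ranger 3.1.0. The count matrices name Cell Ranger 5.0.0, per the file headers; which version applies was not resolved. Gene positions are those of RefSeq for Sscrofa11.1.

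The members and all gene lists were chosen with earlier results of these data known. UMIs were summed over members per library and scaled to 1000000 nuclear-encoded UMIs (CPM). Intervals are at 95% (scipy 1.17.1): Clopper-Pearson for shares, exact Poisson for levels and conditional binomial for ratios. Log2 ratios had 0.5 added to each count. The calling rule was checked on simulated counts. Named genes were the rule genes and LYVE1, the 20 leading genes (at least 50 CPM), the 10 furthest above and 10 furthest below vascular endothelial nuclei, and the 12 highest and 12 lowest in TG. The last were ordered by the interval bound nearest 1, among genes with at least 30 CPM in the higher library and at or above the level of its other nuclei there. Mitochondrial, ribosomal protein, XIST and Y chromosome genes were left out, and some genes that the rule or lists hold are not reported here. Of 467 listed genes, 436 were in the matrices. Genes named from lists in the text were chosen after their values were seen.

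Sub-clusters used the Leiden method (scanpy 1.11.5) on 1000 variable genes and 15 components at resolution 0.5. No doublet caller was run; doublets were limited by the rule and by alternatives. The free RNA profile was approximated by all kept nuclei of a library, since droplets without nuclei were not analysed here. TMM factors came from edgeR 4.0.16.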

Additional observations from a re-analysis of the deposited data

Results flagged for a closer look

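Among the 22 genes named as furthest apart between TG and WT, 3 were called in opposite directions in lymphatic and vascular endothelial nuclei of the same 2 libraries. FSTL4 had a log2 ratio of TG to WT of 8.24 in lymphatic nuclei (0.238 and 108 CPM), whereas its levels were 3.83 and 1.26 CPM in vascular endothelial nuclei. FBN2 had a log2 ratio of 6.55 in lymphatic nuclei, from 4 TG nuclei, and levels of 11.5 and 1.73 CPM in vascular endothelial nuclei. PDZRN4 had a log2 ratio of 3.25 in lymphatic nuclei, with 57 of 70 UMIs in 1 nucleus, and levels of 17.2 and 7.07 CPM in vascular endothelial nuclei. With 1 library per genotype the difference between the classes was not tested for any of the 3.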

How the results depend on the processing

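The share ratio of 0.796 was 0.705 among nuclei with at least 2000 UMIs and 1.00 at a lymphatic share of at least 0.4%; in alternatives chosen after seeing the data it was 0.902 and 0.519 without whole sub-clusters that had summed markers, or 3 markers, of another class at 5 times the level of other members. The 1768 higher and 1067 lower genes were 722 and 658 with members thinned to 1000 UMIs (8257 genes counted). Lower genes were 1957 with the library-wide profile subtracted and 400 at a fold of 2. Higher genes were 787 with only genes at or above the other nuclei's level, also chosen after seeing the data. The median of the lymphatic identity list was 0.10 with the profile subtracted, and the log2 ratio of PDZRN4 was 0.91 without members above 3 times the median UMI count. The causes were not tested, apart from the fewer genes counted after thinning and the stricter fold. Over 15 lists on function, 13 of 210 medians changed sign: the identity, VEGF, junction, axon guidance and insulin lists with the profile subtracted, the insulin and NF-kB lists in thinned members, and the valve and immediate early lists, with medians near 0, in the rest. None of 303 values of named genes changed sign, and 1 was no longer called. Leaving out a replicate was not possible with 1 library per genotype. No paired analysis was possible because each genotype has 1 library. Low counts limit what can be said of genes such as FOXC2 (0 and 1 UMI) and TFF3 (no UMI). The TG members were the shallower, and the part of depth in these counts was not tested.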

Other observations

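Without the members that held markers of another class, GRIA4, DGKB, CNTN5 and PDZRN4 no longer ranked among the 12 highest genes, and TPBG, HSPB6, TCAP, MYH7 and SLC22A3 did. TPBG, the membrane protein trophoblast glycoprotein, then had 15 UMIs in WT members (3.71 CPM) and 60 in TG members (40.7 CPM). SLC22A3, a transporter of organic cations, was at 57.4 and 284 CPM. HSPB6, TCAP and MYH7 are genes of muscle. CHST9, a sulfotransferase, entered the 12 lowest at 122 and 38.7 CPM. The gene with the most UMIs in members was ENSSSCG00000048856, which has no symbol in the matrices. It took 4.29% of nuclear-encoded UMIs in WT members and 6.60% in TG members.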
